A study of Mus musculus with 18 samples.

Results

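The genes described here are the perforin gene Prf1 and 9 granzyme genes, Gzma, Gzmb, Gzmc, Gzmd, Gzme, Gzmf, Gzmg, Gzmk and Gzmm, in mouse natural killer (NK) cells. They were taken by name, as the genes of 1 family and its pore-forming partner, with earlier results of these data known. All 10 matched an Ensembl identifier among the 56953 in the count tables. All 10 passed the filter on low counts, which left 16747 genes for testing. RNA was sequenced from NK cells isolated from spleen and cultured for 7 days at 1% O2 in medium with recombinant human IL-2 at 1700 U/ml. There were 6 groups of 3 libraries in 3 mouse lines. The Hif1a KO mice carried Ncr1 iCre and Hif1a fl/fl, and their Hif1a flox counterparts carried Hif1a fl/fl without the recombinase. The Ahr KO mice carried Ncr1 iCre and Ahr fl/fl, and the Ahr flox mice carried only the floxed Ahr alleles. The Hif1a Ahr KO mice carried Ncr1 iCre with both floxed genes, and the Hif1a Ahr flox mice carried both floxed genes without it. iCre is a Cre recombinase driven from Ncr1, the gene of an activating receptor of NK cells, so deletion is directed to cells that express Ncr1. All 18 cultures were hypoxic and received IL-2, so no normoxic, resting or Cre-only group was part of the comparisons, and an effect of iCre itself cannot be told apart from the deletion. The labels call the 3 libraries of a group biological replicates without stating whether each came from a separate mouse.

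NK cells kill by releasing preformed granules onto a target cell. Perforin opens pores in the target membrane and the granzymes, a family of serine proteases, pass through and cleave proteins inside. Granzyme B cleaves after aspartate and starts the caspase cascade, whereas granzyme A and granzyme K cleave after basic residues and granzyme M after methionine or leucine. Gzmc, Gzmd, Gzme, Gzmf and Gzmg lie in a row beside Gzmb, and humans have no direct counterparts of them. IL-2 is a known inducer of perforin and granzyme expression in NK cells. HIF-1alpha, encoded by Hif1a, is the transcription factor that accumulates when oxygen is low, and the aryl hydrocarbon receptor, encoded by Ahr, is a ligand-activated factor that shares its dimerisation partner.

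In GRCm38.p6, as given by RefSeq, Gzmb lies at chr14:56258836-56262334, Gzmc at chr14:56231397-56241647, Gzmf at chr14:56205263-56211407, Gzmg at chr14:56156581-56159579, Gzmd at chr14:56129556-56132603 and Gzme at chr14:56117619-56120625. Gzma lies at chr13:113093824-113100981 and Gzmk at chr13:113171630-113180965. Prf1 lies at chr10:61297751-61304684 and Gzmm at chr10:79689020-79695261. The authors' counts were made on GRCm39, so these positions serve only to place the genes.

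The promoter windows of Gzmc to Gzmg are shown because these 5 genes are neighbours, are also summed as 1 feature and have similar promoters. Among their coding sequences Gzmd, Gzme, Gzmf and Gzmg are close copies of each other, whereas Gzmc is 71.5% to 73.4% identical to those 4 and 76.2% identical to Gzmb. RefSeq windows for GRCm38.p6 were found for all 10 genes, 11 windows in all since Gzmm has a second start. In the 250 bases upstream of each start, the 5 genes share an ungapped block of 103 bases on the minus strand, of which 89 bases are the same in all 5. The capitals mark TGTGGT and the 8 bases that follow gtaatg.
Gzmc: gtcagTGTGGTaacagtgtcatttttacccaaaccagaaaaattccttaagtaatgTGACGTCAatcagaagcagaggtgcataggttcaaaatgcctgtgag
Gzmd: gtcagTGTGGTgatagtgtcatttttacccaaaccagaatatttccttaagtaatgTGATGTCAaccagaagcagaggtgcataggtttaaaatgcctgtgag
Gzme: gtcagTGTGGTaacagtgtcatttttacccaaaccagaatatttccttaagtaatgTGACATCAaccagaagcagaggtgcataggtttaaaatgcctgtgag
Gzmf: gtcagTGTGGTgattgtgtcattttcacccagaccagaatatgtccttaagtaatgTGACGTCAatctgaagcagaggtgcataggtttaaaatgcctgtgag
Gzmg: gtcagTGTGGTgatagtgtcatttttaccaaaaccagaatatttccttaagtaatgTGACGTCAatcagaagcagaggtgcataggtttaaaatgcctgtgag
The Gzmc block lies at chr14:56234668-56234770, the Gzmd block at chr14:56132608-56132710, the Gzme block at chr14:56120641-56120743, the Gzmf block at chr14:56211443-56211545 and the Gzmg block at chr14:56159610-56159712. Identity over the block was highest between Gzmd and Gzmg, at 97.09%, and lowest between Gzmc and Gzmf, at 90.29%. The 8 capital bases read TGACGTCA, the palindrome recognised by CREB and ATF family factors, in Gzmc, Gzmf and Gzmg. Relative to Gzmc, and counted from 1 at the 5′ end of those 8 bases, Gzmd carries C4T and Gzme carries G5A. Gzmc alone differs from the other 4 blocks at 3 positions, written as the base of the other 4, the position from the 5′ end of the block and the base of Gzmc: T40A, T42A and T89C.

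Motifs were searched as exact letters on both strands of the 250 upstream bases, and shares are over 32851 RefSeq windows of that length. TGTGGT, the core recognised by RUNX factors, occurred at 2 places in the windows of Gzmb, Gzmc, Gzmd, Gzme, Gzmf and Gzmg and at 1 place in those of Prf1, Gzma and the first Gzmm window, against 14% of all windows with at least 1 match. TGACGTCA is found in 1.55% of all windows. ACGTG, a core form of the HIF response element, and GCGTG, its other form and the core of the AhR response element, were not among the letters of the windows of Prf1, Gzma, Gzmb and Gzmc to Gzmg. Of all windows, 16.6% hold ACGTG and 28.2% hold GCGTG. Gzmk held 1 match to ACGTG, the second Gzmm window held 2 that overlap each other on opposite strands, and the first Gzmm window held 1 match to GCGTG. None of the other matches named here overlapped another.

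The near-copies limit how finely the estimated counts can be split. Of the stretches of 31 bases in GENCODE transcripts, 100% were unique to the gene for Gzma, Gzmk and Gzmm, 99.6% for Prf1, 98.6% for Gzmb and 85.2% for Gzmc. The share was lower for the rest of the row, at 66.2% for Gzmg, 65.1% for Gzmf, 61.8% for Gzmd and 57.9% for Gzme. Gzmd and Gzme, whose coding sequences are 93.3% identical, shared the most, and 13.9% of the stretches of Gzmf also occur in Gm4022. Values of Gzmd, Gzme, Gzmf and Gzmg are therefore uncertain relative to each other, and each comparison also gives the sum of Gzmc to Gzmg, fitted as 1 feature in place of the 5.

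Total estimated counts were nearly equal, between 54420649 and 55732940 per library. No library pair within a group agreed within sampling noise, so none was treated as a duplicate. NK markers were detected in every library, with a summed level of all 10 between 2637 and 3403 CPM (counts scaled to a common library total), among them Klrb1c, Klrd1 and Ncr1. Hif1a gene counts were higher in both groups with floxed Hif1a and iCre (182, 147 and 211 CPM in Hif1a KO, 64.9, 59.5 and 56.5 CPM in Hif1a flox), and Ahr gene counts were not called different between KO and flox in any line. Ahr did differ among the 3 flox groups (adjusted p 0.0326), with 27.7, 39.3 and 27.7 CPM in Hif1a flox, 73.9, 77.0 and 78.5 CPM in Ahr flox and 78.1, 52.2 and 68.8 CPM in Hif1a Ahr flox. Since gene totals also hold reads from exons that a deletion would spare, these values do not check the deletion. Ncr1 was higher in each KO group, by 0.92 ± 0.10, 0.97 ± 0.10 and 1.06 ± 0.10 on the log2 scale (SE) in the lines of Hif1a, Ahr and both genes. Of the 10 NK markers, 6 rose and 2 fell (Eomes and Cd244a) in the Hif1a line, 2 rose in the Ahr line, and 5 rose and 1 fell (Cd244a) in the Hif1a Ahr line. Over all tested genes, 17.6% rose and 17.8% fell in the Hif1a line. The shares were 2.14% and 4.78% in the Ahr line, and 14.8% and 16.5% in the Hif1a Ahr line. Hif1a KO replicate 2 was the lowest library of its group for Prf1, for Gzma to Gzmg and for Gzmk, and the highest for Gzmm.

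Levels between genes were compared as CPM per kilobase of transcript (SD, n = 3 per group), with GENCODE transcript lengths. In Hif1a KO cells the order was Gzma (8733 ± 334), Gzmc (7771 ± 394), Gzmb (7118 ± 415), Gzmd (1336 ± 599), Gzme (629.9 ± 307), Prf1 (364 ± 135), Gzmg (293 ± 159.8), Gzmf (68.4 ± 31.5), Gzmk (2.05 ± 0.506) and Gzmm (1.93 ± 0.256). In Hif1a flox cells it was Gzmc (11822 ± 226), Gzma (10807 ± 649), Gzmb (10014 ± 919), Gzmd (6433 ± 1178), Gzmg (3027 ± 936), Gzme (2715 ± 475), Prf1 (1817 ± 365), Gzmf (285 ± 58.6), Gzmk (3.23 ± 0.974) and Gzmm (1.20 ± 0.173). Mean ± SD intervals of neighbours in the order met in KO cells between Gzmc and Gzmb, along the run from Gzmd through Gzme and Prf1 to Gzmg, and between Gzmk and Gzmm. In Hif1a flox cells they met only between Gzma and Gzmb and between Gzmg and Gzme. Gzmk and Gzmm stood far below the other 8 genes in every group.

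**Figure D1:**
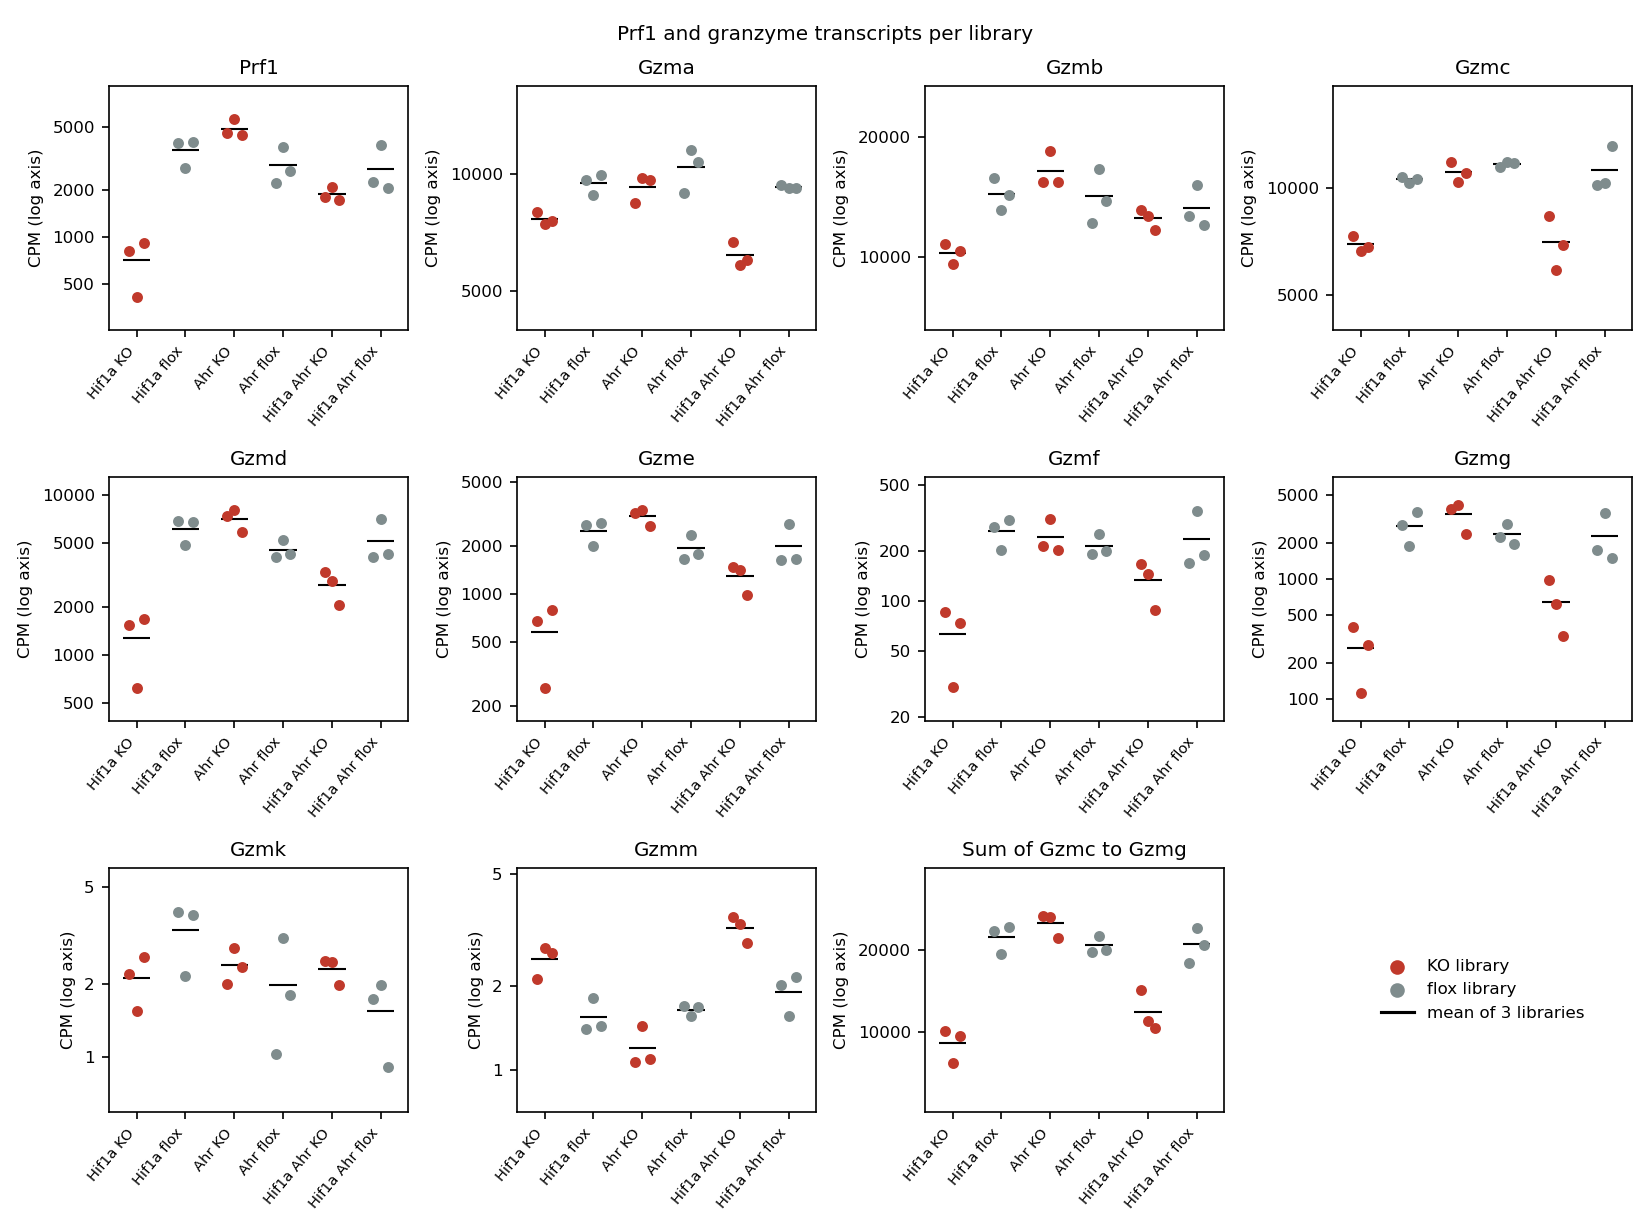
Each panel plots 1 gene, or the sum of Gzmc to Gzmg, with the level in CPM on a log axis for the 6 groups, KO in red to the left of flox in grey within each line. Points are replicates 1 to 3 and lines are group means. Prf1, Gzmd, Gzme, Gzmf and Gzmg lie lowest in Hif1a KO, where every library is below every Hif1a flox library.

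In hypoxic NK cells with Hif1a deleted, perforin and most granzymes were lower than in Hif1a flox cells. Prf1 and Gzmd to Gzmg fell by 2 or more on the log2 scale, Gzma, Gzmb and Gzmc fell by well under 1, and Gzmm, measured at a few CPM, rose. Of the 10 genes, 8 fell and 1 rose at an adjusted p under 0.05 (edgeR quasi-likelihood F test, Benjamini-Hochberg over all genes tested). Over all tested genes 35.4% were called in this comparison, with 17.8% lower and 17.6% higher. The median log2 change of the 10 was -1.36, and that of all tested genes -0.01. These are bulk samples, in which fewer cells of a type and less RNA per cell cannot be told apart.

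Prf1 had 817, 414 and 917 CPM in Hif1a KO libraries, against 3938, 2749 and 4039.5 CPM in Hif1a flox libraries. The highest KO library was below the lowest flox library, and KO replicate 2 was the lowest of all 18. Over all tested genes, 25.1% had every Hif1a KO library below every Hif1a flox library and 24.8% had every one above. The log2 change was -2.32 ± 0.31 (SE), with a 95% confidence interval from -2.99 to -1.65 and an adjusted p of 5.98e-05. With any of the 6 libraries left out it stayed called, between -2.54 and -2.04.

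Gzmb and Gzma, the best studied granzymes, fell less. Gzmb had 10742, 9572 and 10348 CPM in Hif1a KO and 15755, 13124 and 14263 CPM in Hif1a flox. The libraries did not overlap, and the log2 change was -0.49 ± 0.12 (95% interval -0.75 to -0.24, adjusted p 0.00374). Gzma had 8002, 7451 and 7551 CPM in Hif1a KO and 9673, 8849 and 9943 CPM in Hif1a flox, again without overlap. Its log2 change was -0.31 ± 0.10 (adjusted p 0.0175). The Gzma call was lost when Hif1a KO replicate 2 (adjusted p 0.0646), KO replicate 3 (0.0555), Hif1a flox replicate 1 (0.0588) or flox replicate 3 (0.0715) was left out, with log2 changes between -0.30 and -0.27.

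Gzmc, whose product kills cells without needing caspases, had 7340.2, 6662 and 6839 CPM in Hif1a KO and 10747, 10349 and 10612 CPM in Hif1a flox. Its log2 change was -0.61 ± 0.11 (adjusted p 4.61e-04), and the groups were far apart relative to their spread. Gzmd, farther along the row, had 1548, 626 and 1689 CPM in Hif1a KO and 6867, 4891 and 6847 CPM in Hif1a flox, a log2 change of -2.27 ± 0.34 (adjusted p 1.41e-04). Gzme had 679, 259 and 793 CPM in Hif1a KO and 2707, 1986 and 2768 CPM in Hif1a flox (-2.11 ± 0.35, adjusted p 3.77e-04). In both, every KO library was below every flox library and KO replicate 2 was lowest.

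Gzmg showed the lowest fitted value of the 10. It had 401, 112 and 285 CPM in Hif1a KO and 2813, 1872 and 3569 CPM in Hif1a flox, a log2 change of -3.37 ± 0.54 (95% interval -4.54 to -2.20, adjusted p 3.24e-04). Gzmf, the least abundant of the row per kilobase, had 85.0, 30.2 and 73.5 CPM in Hif1a KO and 279, 202 and 305 CPM in Hif1a flox (-2.06 ± 0.40, adjusted p 0.00128). Neither gene had overlapping libraries. Within this row, the 95% interval of Gzmc, -0.85 to -0.36, lay wholly above those of Gzmd (-2.99 to -1.54), Gzme (-2.86 to -1.35), Gzmf (-2.92 to -1.20) and Gzmg.

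The sum of Gzmc to Gzmg does not depend on how reads are split among those genes. It can still depend on splits with genes outside it, as Gzmg shares 9.33% of its stretches of 31 bases with Gzmn. Hif1a KO libraries had 10053, 7689 and 9679.8 CPM of the sum and Hif1a flox libraries had 23413, 19298 and 24102 CPM. The sum fell by 1.29 on the log2 scale (SE 0.14, adjusted p 2.37e-06), and no KO library reached a flox library.

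The granzymes at a few CPM moved differently. Gzmm had 2.11, 2.73 and 2.62 CPM in Hif1a KO and 1.40, 1.80 and 1.44 CPM in Hif1a flox, a rise of 0.68 ± 0.17 (adjusted p 0.00486) without overlap. Gzmk, the neighbour of Gzma, had 2.20, 1.55 and 2.58 CPM in Hif1a KO and 3.94, 2.16 and 3.86 CPM in Hif1a flox, which overlapped. Its log2 change of -0.65 ± 0.34 was not called (95% interval -1.38 to 0.07, adjusted p 0.154). With same-numbered libraries as pairs it was called lower, at -0.64 (adjusted p 0.0176).

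**Figure D2:**
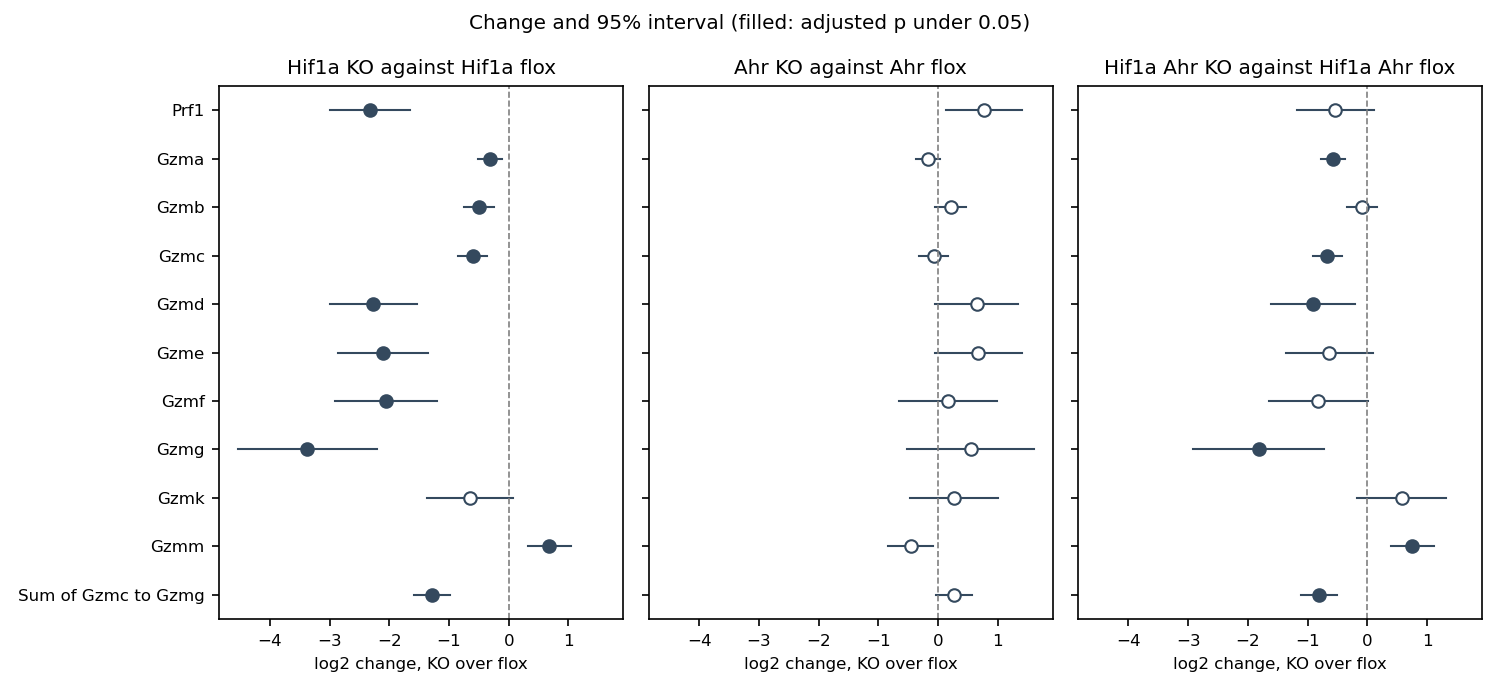
The log2 change of KO over flox, with its 95% confidence interval, is plotted for each gene and for the sum of Gzmc to Gzmg in the 3 lines, with filled symbols for calls at an adjusted p under 0.05. In this fit without pairs, values in the Hif1a line run from -3.37 for Gzmg to 0.68 for Gzmm. No gene is called there in the Ahr line, and Prf1 is called only in the Hif1a line. With same-numbered libraries as pairs, not plotted, Prf1 was also called higher in the Ahr line and lower in the Hif1a Ahr line.

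Ahr deletion gave a different picture, with Prf1 and several granzymes above flox but none called with all 18 libraries fitted and no pairing. The counts were 0 higher and 0 lower of 10 with edgeR, where 2 had an unadjusted p under 0.05, and DESeq2 and limma voom also called 0. In other edgeR fits, 1 gene was called higher with same-numbered libraries as pairs, and 3 with only the 6 libraries of the line. Of all tested genes 6.92% were called in this line, 2.14% higher and 4.78% lower. The median log2 change of the 10 was 0.24, against 0.00 for all genes.

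Prf1 had 4547, 5662 and 4424 CPM in Ahr KO, against 2214, 3719 and 2643 CPM in Ahr flox. All KO libraries were above all flox libraries, and so were 13.8% of all tested genes. The log2 change was 0.77 ± 0.30, with a 95% interval from 0.13 to 1.41 and an adjusted p of 0.154. Same-numbered libraries deviated together in this line, and with them as pairs Prf1 was called higher, at 0.80 ± 0.14 (adjusted p 0.00256). A fit of only the 6 libraries of the line also called it higher (0.77, adjusted p 0.0349).

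Gzmd had 7436, 8113 and 5929.8 CPM in Ahr KO and 4113, 5283 and 4307 CPM in Ahr flox, without overlap. Its log2 change was 0.65 ± 0.32 (95% interval -0.05 to 1.34, adjusted p 0.282). Gzme had 3199.9, 3347 and 2646 CPM in Ahr KO and 1661, 2333 and 1782 CPM in Ahr flox, also without overlap (0.67 ± 0.34, interval -0.06 to 1.40, adjusted p 0.290). Both were called higher when only the 6 libraries of the line were fitted, with adjusted p of 0.0172 for Gzmd and 0.0160 for Gzme.

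The other granzymes overlapped between Ahr KO and Ahr flox, apart from Gzmm. Gzmb had 15436, 18423 and 15407 CPM in Ahr KO and 12165, 16642 and 13796 CPM in Ahr flox (0.21 ± 0.12, interval -0.04 to 0.46). Gzma had 8406, 9752 and 9662 CPM in Ahr KO and 8951, 11513 and 10738 CPM in Ahr flox (-0.17 ± 0.10, interval -0.37 to 0.04). Gzmc had 11813, 10416 and 11001 CPM in Ahr KO and 11409.7, 11784 and 11756 CPM in Ahr flox (-0.07 ± 0.11, interval -0.31 to 0.17). The interval of Gzma includes its own change in the Hif1a line, -0.31. Those of Gzmb and Gzmc do not include theirs, -0.49 and -0.61.

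Gzmg, with 3769.6, 4137 and 2346 CPM in Ahr KO and 2235, 2845 and 1945 CPM in Ahr flox, spread widely within groups (0.55, interval -0.52 to 1.61). Gzmf had 215, 309 and 202 CPM in Ahr KO and 191, 254 and 200.01 CPM in Ahr flox (0.17, interval -0.65 to 0.99). Gzmk had 2.00, 2.80 and 2.35 CPM in Ahr KO and 1.04, 3.10 and 1.80 CPM in Ahr flox (0.27, interval -0.46 to 1.01). All 3 overlapped, and their intervals leave room for changes in either direction. Gzmm, with 1.06, 1.43 and 1.09 CPM in Ahr KO and 1.69, 1.56 and 1.67 CPM in Ahr flox, was lower without overlap, as were 15.3% of all tested genes, but not called (-0.46 ± 0.18, adjusted p 0.146). The sum of Gzmc to Gzmg was 26433, 26322 and 22124 CPM in Ahr KO and 19610.2, 22499 and 19990.2 CPM in Ahr flox (0.27 ± 0.14, interval -0.03 to 0.57, adjusted p 0.305).

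When both genes were deleted, Gzma, Gzmc, Gzmd and Gzmg fell and Gzmm rose, while Prf1 and Gzmb were not called. That is 4 lower and 1 higher of 10, against 31.3% of all tested genes called, 16.5% lower and 14.8% higher. The median log2 change of the 10 was -0.61, against -0.02 for all genes.

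Prf1 had 1803, 2066 and 1724 CPM in Hif1a Ahr KO and 2242, 3816 and 2042 CPM in Hif1a Ahr flox. The lowest flox library lay just under the highest KO library, and flox replicate 2 stood well above the others. The log2 change was -0.53 ± 0.30 (95% interval -1.18 to 0.11, adjusted p 0.200). It was -0.20 (adjusted p 0.671) without flox replicate 2, and with each other library left out it lay between -0.70 and -0.48. With same-numbered libraries as pairs, Prf1 was called lower, at -0.48 (adjusted p 0.0167). Not every such pair deviated together in this line.

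Gzmb had 13109, 12663 and 11681 CPM in Hif1a Ahr KO and 12637, 15179 and 12018 CPM in Hif1a Ahr flox, with overlap (-0.09 ± 0.12, interval -0.34 to 0.16, adjusted p 0.627). Gzma had 6703, 5821 and 6026 CPM in Hif1a Ahr KO and 9349.6, 9205 and 9224 CPM in Hif1a Ahr flox, far apart relative to their spread (-0.58 ± 0.10, adjusted p 1.55e-04). Gzmc had 8342, 5895 and 6901 CPM in Hif1a Ahr KO and 10205, 10296 and 13118 CPM in Hif1a Ahr flox (-0.67 ± 0.11, adjusted p 2.23e-04). The Gzma and Gzmc libraries did not overlap, and both calls held with each library left out.

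Gzmd had 3293, 2909 and 2063 CPM in Hif1a Ahr KO and 4117, 7142 and 4297 CPM in Hif1a Ahr flox, without overlap. Its log2 change was -0.91 ± 0.32 (adjusted p 0.0465). That call was lost without Hif1a Ahr KO replicate 2 (-0.95, adjusted p 0.101), KO replicate 3 (-0.74, 0.166), flox replicate 2 (-0.61, 0.206) or flox replicate 3 (-1.03, 0.0502), and also without the filter on low counts (-0.91, 0.127).

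Gzmg had 976, 613 and 337 CPM in Hif1a Ahr KO and 1746, 3550.4 and 1499 CPM in Hif1a Ahr flox, again without overlap (-1.82 ± 0.51, adjusted p 0.0154). The call was lost without KO replicate 2 (-1.79, adjusted p 0.0574), KO replicate 3 (-1.51, 0.0636) or flox replicate 2 (-1.34, 0.0748), and when only the 6 libraries of the line were fitted (-1.82, 0.0705). So the number of granzymes called lower in this line was 2, not 4, without any of those 3 libraries.

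Gzme had 1479.8, 1403 and 987 CPM in Hif1a Ahr KO and 1633, 2720.1 and 1657 CPM in Hif1a Ahr flox (-0.64, interval -1.36 to 0.09, adjusted p 0.178). Gzmf had 167, 145 and 88.2 CPM in Hif1a Ahr KO and 168, 349 and 189.6 CPM in Hif1a Ahr flox (-0.82, interval -1.65 to 0.01, adjusted p 0.125). Neither was called, though each KO library was below each flox library, as for 19.6% of all tested genes. Without flox replicate 2 their values were -0.35 for Gzme and -0.42 for Gzmf. The sum of Gzmc to Gzmg was 14257, 10964 and 10376 CPM in Hif1a Ahr KO and 17868, 24058 and 20761 CPM in Hif1a Ahr flox. It fell by 0.82 on the log2 scale (SE 0.14, adjusted p 2.85e-04), without overlap and with each library left out in turn.

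Gzmm had 3.51, 3.32 and 2.83 CPM in Hif1a Ahr KO and 2.01, 1.56 and 2.15 CPM in Hif1a Ahr flox, a rise of 0.76 ± 0.17 (adjusted p 0.00240) without overlap, as for 17.6% of all tested genes. Gzmk had 2.47, 2.46 and 1.98 CPM in Hif1a Ahr KO and 1.74, 1.99 and 0.910 CPM in Hif1a Ahr flox, which overlapped (0.58, interval -0.17 to 1.32, adjusted p 0.238).

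Whether the lines responded differently was tested directly, as the difference between their log2 changes in the same edgeR fit without pairs. The Hif1a change minus the Ahr change was lower for 7 of the 10 genes and higher for 1, where 32.3% of all tested genes were called, 15.7% lower and 16.6% higher. Prf1 differed by -3.09 ± 0.43 (adjusted p 9.60e-05), Gzmd by -2.92 ± 0.46 (2.99e-04) and the sum of Gzmc to Gzmg by -1.56 ± 0.20 (1.61e-05). Gzma and Gzmk were not called (-0.14, interval -0.43 to 0.14, and -0.93, interval -1.96 to 0.10). Gzmk was called without Ahr flox replicate 2 (-1.40, adjusted p 0.0238).

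The change in the Hif1a Ahr line minus that in the Hif1a line was called for Prf1 alone, where 9.63% of all tested genes were called, 4.52% higher and 5.11% lower. The Prf1 change was higher, that is less negative, in the line with both deletions, by 1.79 ± 0.42 on the log2 scale (95% interval 0.87 to 2.70, adjusted p 0.0199). The call was lost without Hif1a Ahr KO replicate 2 (1.71, adjusted p 0.0539), Hif1a Ahr flox replicate 1 (1.67, 0.0595), Hif1a flox replicate 1 (1.71, 0.0510) or Hif1a flox replicate 3 (1.69, 0.0525). Of the 10 genes, 7 had an unadjusted p under 0.05. Gzmd (1.36 ± 0.46, adjusted p 0.0794) and Gzme (1.47 ± 0.48, 0.0698) were not called with edgeR but were with DESeq2, and each was called without Hif1a KO replicate 3 or Hif1a Ahr flox replicate 2. Gzmc and Gzmm differed by -0.06 (interval -0.40 to 0.27) and 0.07 (interval -0.44 to 0.58).

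The change in the Hif1a Ahr line minus that in the Ahr line was lower for 4 genes and higher for 1, where 16.4% of all tested genes were called, 7.82% lower and 8.59% higher. Prf1 differed by -1.31 ± 0.42, with an adjusted p of 0.05003 that did not pass. It was called with DESeq2 (-1.30, adjusted p 0.0216) and without Hif1a Ahr flox replicate 1 (-1.42, 0.0485), Hif1a Ahr flox replicate 3 (-1.47, 0.0344) or Ahr flox replicate 2 (-1.54, 0.0315). The number of genes called lower was 2 when Ahr KO replicate 1 was omitted. It was 1 when the omitted library was replicate 2 or 3 of Hif1a Ahr KO, replicate 2 of Hif1a Ahr flox, replicate 2 of Ahr KO, or replicate 1 or 3 of Ahr flox. Gzmc differed by -0.60 ± 0.16 (adjusted p 0.0165) and Gzmm by 1.21 ± 0.25 (0.00234). The change in the Hif1a Ahr line minus the sum of the changes in the 2 single lines was called for 0 of 10 with edgeR, with 0 at an unadjusted p under 0.05 and 0 with DESeq2. Only 0.0358% of all tested genes were called there, and for Prf1 the interval ran from -0.09 to 2.12. Among the 3 flox groups 0 of 10 genes were called with edgeR and 0 with DESeq2, 1 had an unadjusted p under 0.05 (Gzmk, 0.0153), and 0.245% of all genes were called.

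The Gzmb to Gzme row continues toward the mast cell protease genes. The listed neighbours that are not among the 10 numbered 10, of which 4 could be tested, and 3 of these fell in Hif1a KO cells, where 17.8% of all tested genes fell. In the Hif1a Ahr line 2 fell and 1 rose, where 16.5% of all tested genes fell and 14.8% rose. In the Ahr line the 4 log2 changes ran from 0.63 for Gzmn to 2.34 for Cma1 and did not pass the test. Gzmn, a granzyme between Gzmg and Gzmf, had 1.90, 0.341 and 1.29 CPM in Hif1a KO and 12.3, 6.28 and 14.9 CPM in Hif1a flox (-3.24 ± 0.65, adjusted p 0.00163). Mcpt8, a serine protease known from basophils, had 28.6, 8.48 and 33.5 CPM in Hif1a KO and 163, 124 and 171 CPM in Hif1a flox (-2.70, adjusted p 2.03e-04). Both thus had every KO library below every flox library. Ctsg, the cathepsin G gene, fell by 2.35 (adjusted p 7.71e-04). Cma1, the mast cell chymase gene, did not follow them: its log2 change was -0.18 in the Hif1a line and it rose by 2.90 in the Hif1a Ahr line (adjusted p 0.00665), with 17.6, 27.0 and 11.6 CPM in Hif1a Ahr KO and 2.39, 4.26 and 0.874 CPM in Hif1a Ahr flox.

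**Figure D3:**
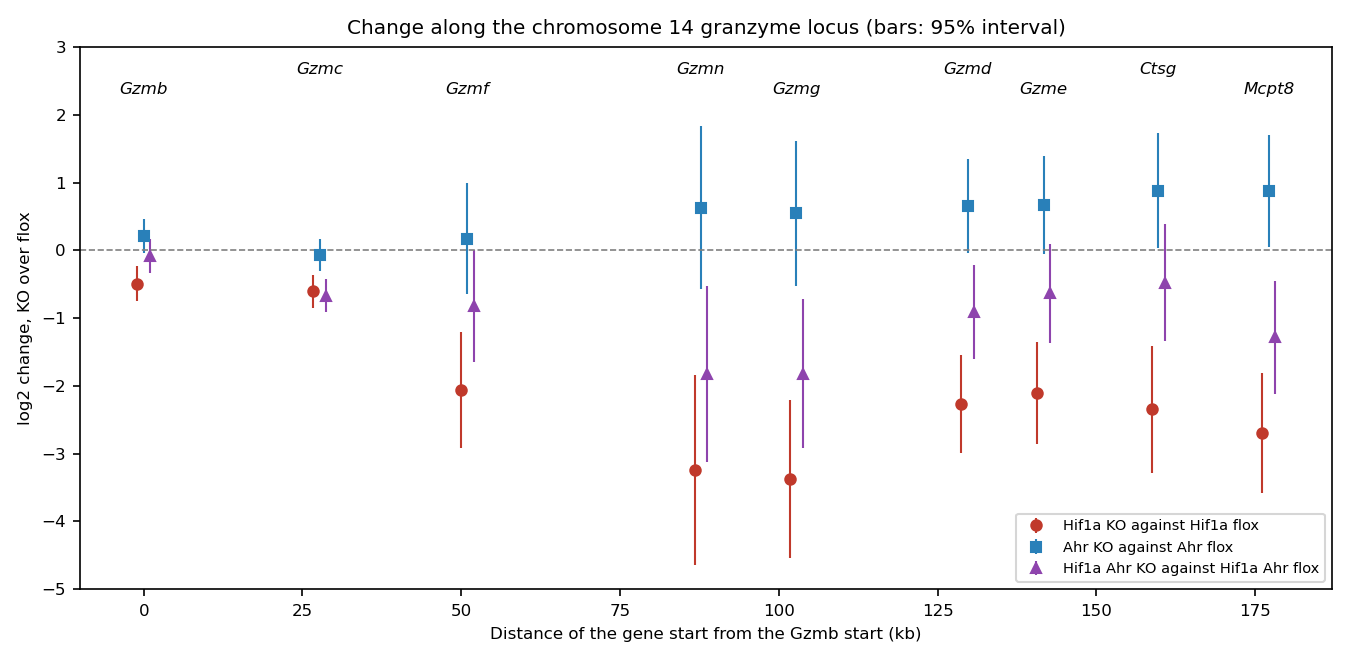
The log2 change of KO over flox with its 95% confidence interval is plotted against the distance of each gene's start from that of Gzmb, in kb, for Gzmb, Gzmc, Gzmf, Gzmn, Gzmg, Gzmd, Gzme, Ctsg and Mcpt8, with the 3 lines shifted slightly sideways. In the Hif1a line Gzmb and Gzmc lie at -0.49 and -0.61, and the genes from Gzmf to Mcpt8 lie between -3.37 and -2.06. Cma1, a tested neighbour at 317.7 kb whose changes did not follow these, is not plotted.

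As a share of all counts, the 9 granzymes together made up 2.82 ± 0.18% in Hif1a KO and 4.48 ± 0.28% in Hif1a flox (SD, n = 3). The shares were 4.92 ± 0.27% in Ahr KO and 4.51 ± 0.32% in Ahr flox, and 3.12 ± 0.29% in Hif1a Ahr KO and 4.30 ± 0.34% in Hif1a Ahr flox. Exact permutation tests, 2-sided, gave p = 0.1 in the Hif1a line, 0.2 in the Ahr line and 0.1 in the line with both genes floxed, and 0.1 is the smallest that 3 against 3 libraries allow.

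The make-up of the granzyme counts was compared for 9 granzymes in 3 lines, 27 cases. KO and flox libraries did not overlap in 16. By line these were 7 of 9 for Hif1a, 4 of 9 for Ahr and 5 of 9 for Hif1a Ahr. In CPM, KO lay wholly above flox for 24.8% of all tested genes in the Hif1a line and wholly below for 25.1%. These figures were 13.8% and 15.3% in the Ahr line and 17.6% and 19.6% in the Hif1a Ahr line. Shares within a library add up to the whole, so the cases depend on each other. The libraries overlapped in 11 cases, among them Gzmc in all 3 lines. Gzma overlapped in the Hif1a Ahr line (20.3% in Hif1a Ahr KO and 21.5% in Hif1a Ahr flox) and Gzmb in the Ahr line (32.4% in Ahr KO and 31.2% in Ahr flox). Of the cases without overlap, 8 of the more abundant granzymes are given, chosen after their values were seen. Gzma took 28.4% of all granzyme counts in Hif1a KO cells, against 20.6% in Hif1a flox cells. Gzmb took 37.8% in Hif1a KO and 31.2% in Hif1a flox. Gzmd took 4.68% in Hif1a KO and 13.4% in Hif1a flox, and Gzmg took 0.96% in Hif1a KO and 5.89% in Hif1a flox. In the line with both genes floxed, Gzmb took 41.0% in Hif1a Ahr KO and 30.5% in Hif1a Ahr flox, and Gzmg took 2.05% in Hif1a Ahr KO and 5.09% in Hif1a Ahr flox. In the Ahr line, Gzma took 18.4% in Ahr KO and 22.9% in Ahr flox, and Gzmd took 14.1% in Ahr KO and 10.1% in Ahr flox. These 8 cases were taken from those without overlap, where the 2-sided exact permutation p is always 0.1, the smallest possible. That p therefore adds nothing to the lack of overlap, and none of the 8 can pass 0.05. Dividing by transcript length changed no direction among them.

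**Figure D4:**
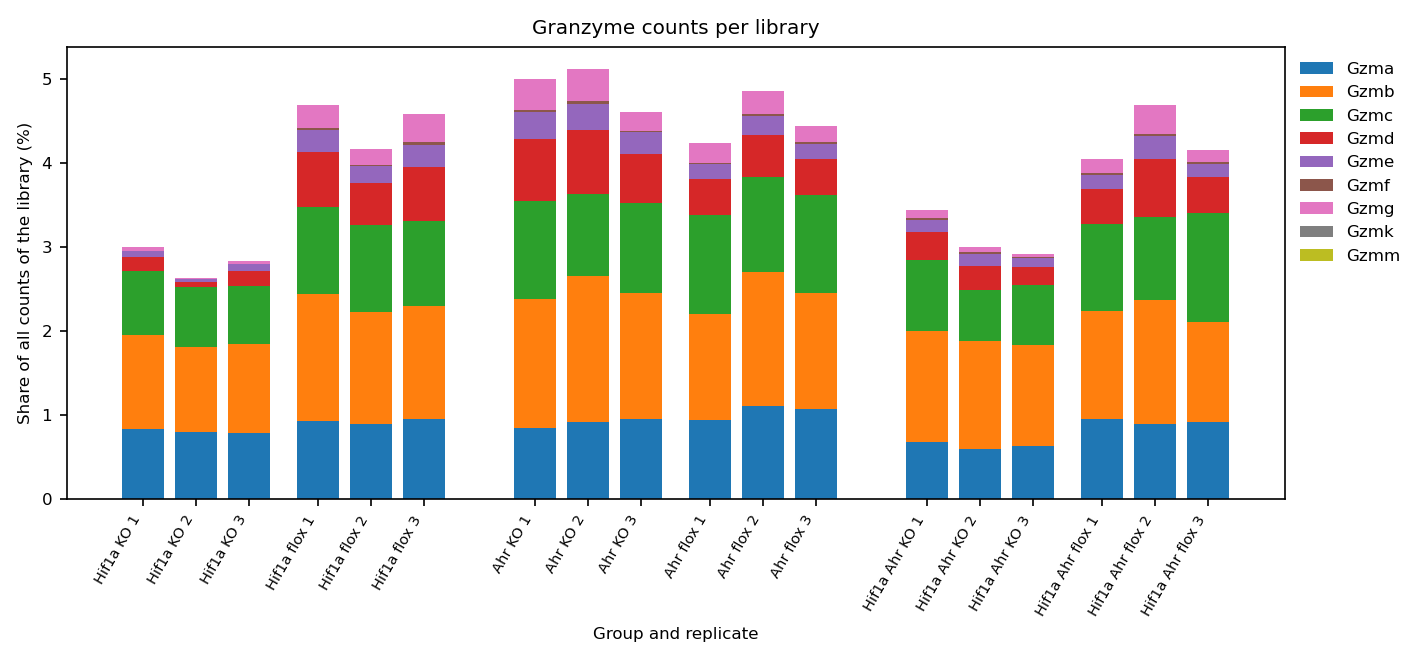
Stacked bars give the share of all counts, in percent, taken by each granzyme in each of the 18 libraries, with KO libraries left of flox libraries in each line. The bars average 2.82% in Hif1a KO and 4.48% in Hif1a flox, and the parts for Gzmd, Gzme and Gzmg are thin in Hif1a KO.

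Genes that load, release or regulate these proteases were counted by list, to be read against the share of all tested genes called, which was 35.4% in the Hif1a line, 6.92% in the Ahr line and 31.3% with both genes floxed. Of 11 packaging and activation genes, 2 rose and 4 fell in the Hif1a line, 1 fell in the Ahr line, and 1 rose and 2 fell in the Hif1a Ahr line, numbers near those shares in the last 2 lines. Calr, a chaperone that also binds perforin in the granule, had 1214, 1056 and 1255 CPM in Hif1a KO and 2394, 2244 and 2335 CPM in Hif1a flox (-0.98, adjusted p 1.05e-07), and it also fell in the Hif1a Ahr line (-0.51, adjusted p 1.56e-04). Lamp1, a lysosomal membrane protein exposed when granules fuse, rose by 0.57 (adjusted p 1.42e-06) in the Hif1a line and by 0.64 (3.39e-07) in the Hif1a Ahr line. Srgn, the proteoglycan core that binds granzymes, was not called in any line (0.06 for Hif1a, -0.23 for Ahr and -0.06 for both). Ctsc, whose product removes the propeptide of granzymes, fell by 0.29 (adjusted p 5.00e-04) in the Hif1a Ahr line.

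Of 10 release genes tested, 1 rose and 3 fell in the Hif1a line, 1 rose in the Ahr line, and 3 rose and 1 fell in the Hif1a Ahr line, which is near the shares of 35.4%, 6.92% and 31.3% over all tested genes. Rab27a, the GTPase that docks granules, had 173, 154 and 196 CPM in Hif1a KO and 289, 244 and 302 CPM in Hif1a flox (-0.67, adjusted p 4.60e-04). In the Ahr line it rose by 0.44 (adjusted p 0.0443), with 313, 346 and 319 CPM in Ahr KO and 211, 274 and 239 CPM in Ahr flox. In the Hif1a Ahr line it was not called (-0.07). The syntaxin gene Stx11 and its partner Stxbp2 fell in the Hif1a line, by 0.37 (adjusted p 0.00495) and 0.20 (0.00864).

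Among 18 transcription factors linked to these genes, 6 rose and 6 fell in the Hif1a line, 3 rose and 2 fell in the Ahr line, and 7 rose and 5 fell in the Hif1a Ahr line, where 35.4%, 6.92% and 31.3% of all tested genes were called. Eomes, a T-box factor that can activate Prf1, had 228, 166 and 244 CPM in Hif1a KO and 340.1, 287 and 338 CPM in Hif1a flox (-0.60, adjusted p 0.00669). It had 423, 492 and 435 CPM in Ahr KO and 229.8, 312 and 261 CPM in Ahr flox (0.75, adjusted p 0.00802), and 415, 475 and 493 CPM in Hif1a Ahr KO and 228, 332 and 248 CPM in Hif1a Ahr flox (0.77, adjusted p 0.00127). Eomes was thus lower without Hif1a alone and higher in both lines without Ahr. Nfil3, needed for NK development, fell by 1.16 (adjusted p 3.37e-06) in the Hif1a line and by 0.70 (5.20e-04) in the Hif1a Ahr line. Prdm1, encoding Blimp-1, fell by 1.28 (1.27e-04) and 1.08 (6.04e-04) in the same lines. Tcf7, encoding the early-stage factor TCF1, rose by 2.39 (2.35e-04) in the Hif1a line and by 1.82 (0.00182) in the Hif1a Ahr line, and fell by 1.82 (0.0142) in the Ahr line.

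The last list held death ligands, which kill through surface receptors rather than granules, and Ifng, the gene of the cytokine interferon gamma. Of these 6 genes, 5 rose in the Hif1a line and 3 rose in the Hif1a Ahr line, where 17.6% and 14.8% of all tested genes rose. In the Ahr line the 6 log2 changes ran from -0.55 for Lta to 0.57 for Ifng and did not pass the test. Tnf had 18.6, 38.3 and 22.4 CPM in Hif1a KO and 5.38, 7.96 and 5.25 CPM in Hif1a flox (2.09, adjusted p 5.80e-04), and Fasl had 47.8, 48.2 and 57.8 CPM in Hif1a KO and 42.3, 38.9 and 47.0 CPM in Hif1a flox (0.26, adjusted p 0.0245). Ifng was the 1 listed gene not called in the Hif1a line (-0.47, adjusted p 0.282).

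**Figure D5:**
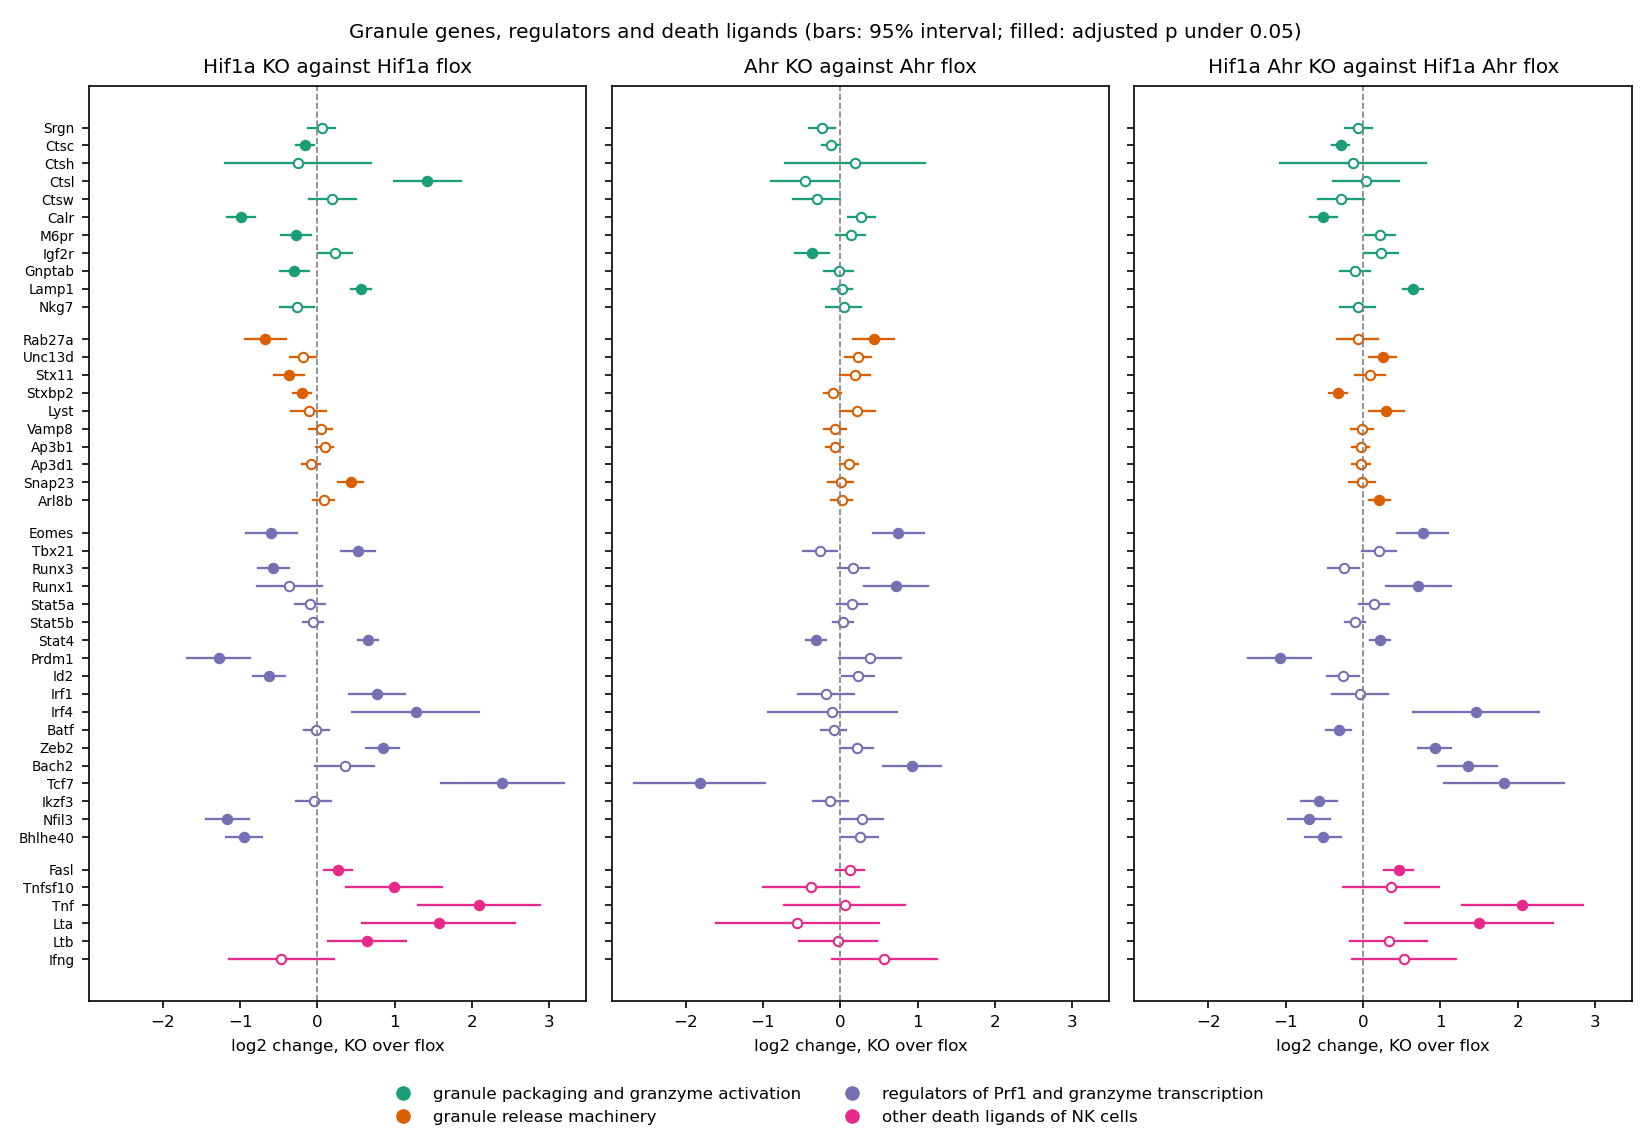
The log2 change of KO over flox with its 95% confidence interval is plotted for genes of granule packaging, granule release, transcriptional regulation and death ligands in the 3 lines, with filled symbols for calls. Calr and Rab27a lie below 0 in the Hif1a line, at -0.98 and -0.67, and Tnf lies above, at 2.09.

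Markers of other cell types differed between some groups beside the granzymes. Calls in these lists are to be read against the shares of all tested genes called. Those were 35.4% in the Hif1a line, 6.92% in the Ahr line and 31.3% in the Hif1a Ahr line. Of the mast cell and basophil list, 3 of 6 genes could be tested. Mcpt8 and Cpa3 fell in the Hif1a line and Mcpt8 fell in the Hif1a Ahr line. The 6 summed to 9.35 to 34.6 CPM in Hif1a KO and 126 to 174 CPM in Hif1a flox, to 170.2 to 214 CPM in Ahr KO and 96.9 to 121 CPM in Ahr flox, and to 37.2 to 70.05 CPM in Hif1a Ahr KO and 95.6 to 166 CPM in Hif1a Ahr flox. Most of each sum was Mcpt8. Over the 18 libraries Cpa3 ranged from 0.692 to 3.87 CPM, Prss34 reached at most 0.416 CPM, and Fcer1a, Ms4a2 and Tpsb2 reached at most 0.0532 CPM.

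Of the 5 markers of type 1 innate lymphoid cells (ILC1), relatives of NK cells, 1 rose and 2 fell in the Hif1a line, 1 fell in the Ahr line and 3 fell in the Hif1a Ahr line. They summed to 149.6 to 239 CPM in Hif1a KO and 296 to 332 CPM in Hif1a flox, to 385 to 410.1 CPM in Ahr KO and 362 to 414 CPM in Ahr flox, and to 88.1 to 179 CPM in Hif1a Ahr KO and 278 to 326 CPM in Hif1a Ahr flox.

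Of the 12 T cell markers, 4 fell in the Hif1a line, 2 fell in the Ahr line, and 2 rose and 2 fell in the Hif1a Ahr line. In the Hif1a and Hif1a Ahr lines the numbers called are near the shares of 35.4% and 31.3% over all tested genes. Their sum was lower without overlap in each KO group, with 448 to 462 CPM in Hif1a KO and 539.7 to 590.4 CPM in Hif1a flox, 494 to 526 CPM in Ahr KO and 566 to 589.7 CPM in Ahr flox, and 495 to 519 CPM in Hif1a Ahr KO and 572 to 625 CPM in Hif1a Ahr flox. Trbc1 gave 300.4 to 348 CPM of it. The highest value in any library was 105 CPM for Trbc2, 89.2 CPM for Cd3g, 73.5 CPM for Trdc, 35.7 CPM for Cd3d, 16.3 CPM for Trac, 8.45 CPM for Cd8a and 6.05 CPM for Cd3e, and it was below 5 CPM for Cd4, Cd5, Cd6 and Cd8b1.

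Of 4 neutrophil markers tested, 4 fell in the Hif1a Ahr line and 3 fell in the Hif1a line. All 6 listed summed to 0.0853 to 0.138 CPM in Hif1a KO and 1.12 to 4.88 CPM in Hif1a flox, to 0.477 to 1.33 CPM in Ahr KO and 0.432 to 1.58 CPM in Ahr flox, and to 0.157 to 0.359 CPM in Hif1a Ahr KO and 0.910 to 5.03 CPM in Hif1a Ahr flox. The 1 B cell marker tested, Cd79b, fell in the Ahr and Hif1a Ahr lines, and the B cell list summed to at most 1.18 CPM in any library.

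Of the dendritic cell list, 3 of 5 genes were tested. Itgax rose in the Hif1a line, and in the Hif1a Ahr line Itgax rose and Xcr1 fell. The sum, most of it Itgax, was 322 to 390.1 CPM in Hif1a KO and 190.4 to 233 CPM in Hif1a flox, 219 to 246 CPM in Ahr KO and 220.4 to 235 CPM in Ahr flox, and 265 to 310.1 CPM in Hif1a Ahr KO and 143 to 219.8 CPM in Hif1a Ahr flox. Zbtb46 reached at most 10.2 CPM, Xcr1 0.865 CPM, Flt3 0.109 CPM and Siglech 0.0719 CPM.

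Of 5 macrophage and monocyte markers tested, Cd68 rose and the other 4 fell in the Hif1a line, Cd68 fell in the Ahr line, and Csf1r, Lyz2 and Itgam fell in the Hif1a Ahr line. The list summed to 91.0 to 112 CPM in Hif1a KO and 102 to 159.9 CPM in Hif1a flox, to 137 to 176 CPM in Ahr KO and 126 to 144 CPM in Ahr flox, and to 72.3 to 87.9 CPM in Hif1a Ahr KO and 86.7 to 125 CPM in Hif1a Ahr flox. The highest value in any library was 149 CPM for Itgam, 53.9 CPM for Cd68, 5.78 CPM for Cd14, 4.39 CPM for Csf1r, 1.24 CPM for Lyz2 and 0.0874 CPM for Adgre1. The part of all these markers in the granzyme and perforin results was not tested.

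Genes with the most similar pattern were ranked by the root mean square difference of mean-centred log2 CPM over the 18 libraries, among 8833 genes that averaged 10 CPM or more. The 5 nearest to Prf1 were Capn5 (0.125), Adgrb2 (0.156), Pilrb1 (0.199), Havcr2 (0.235) and Fcrl6 (0.242), where Prf1 itself varied by 0.954 about its mean. The 5 nearest to Gzmb, which varied by 0.243, were Xbp1 (0.0756), Manf (0.0774), Arhgef7 (0.0776), Esyt1 (0.0791) and Morf4l2 (0.0864). For the sum of Gzmc to Gzmg, which varied by 0.556, they were Pstpip1 (0.133), Clybl (0.136), Anxa5 (0.142), Nfil3 (0.142) and Dmwd (0.145). All values describe the same 18 libraries and carry no test.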

How the data were processed

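RNA was sequenced from 18 NK cell cultures, 3 in each of 6 groups, with strand-specific mRNA libraries, per the labels. The authors deposited estimated counts per Ensembl gene (not whole in 65.5% to 67.8% of values above 0) and log2 CPM, which matched log2 CPM recomputed from the deposited counts with a prior count of 2. The submitters' processing notes name Trim Galore 0.6.4, kallisto 0.4.6, edgeR 3.17 and GRCm39; the annotation and strand setting are not given in the sources used here. Estimated counts can be split wrongly among near-copies.

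All libraries were fitted together with edgeR 4.0.16 in R 4.3.3 (counts as deposited, TMM, filterByExpr by group, robust quasi-likelihood F tests, Benjamini-Hochberg over 16747 genes, calls at an adjusted p under 0.05), and the scripts were tested on simulated data. With the sum of Gzmc to Gzmg as 1 feature, 16743 were tested. SE is the log2 change divided by the root of F. DESeq2 1.42.0, on rounded counts, and limma 3.58.1 were alternatives, beside other size factors, no filter, 6-library fits, replicate pairs and leaving out each library. CPM are TMM-scaled. Rows with no symbol held 0.315% of counts. Gene symbols came from a reference list of gene names keyed by Ensembl identifier, with RefSeq synonyms as a fallback for listed genes. Matches were found for 52029 of 56953 identifiers and 136 of 138 listed genes. Vamp7 and Mcpt10 are not analysed here.

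Members and lists were chosen with earlier results of these data known. Named from each list were up to 4 called genes of lowest adjusted p in each line, plus values given as not called. Same-numbered KO and flox libraries deviated together in the Hif1a line (r 0.33, 0.54 and 0.30 over genes) and the Ahr line (0.52, 0.44 and 0.49). They did not in every pair of the Hif1a Ahr line (0.078, 0.46 and 0.29). The main fit used group means without pairs, so its SE, intervals and p-values ignore this. Pairs were fitted only as an alternative, for KO against flox in each line, and not for the differences between lines. P-values measure the spread between these cultures.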

Additional observations from a re-analysis of the deposited data

Results flagged for a closer look

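Differences between lines in the KO against flox change were flagged where the difference itself passed an adjusted p under 0.05 in edgeR. The Hif1a change minus the Ahr change was -3.09 for Prf1, -0.70 for Gzmb, -0.53 for Gzmc, -2.92 for Gzmd, -2.78 for Gzme, -2.23 for Gzmf, -3.92 for Gzmg, 1.14 for Gzmm and -1.56 for the sum of Gzmc to Gzmg on the log2 scale. The change in the Hif1a Ahr line minus that in the Hif1a line was 1.79 for Prf1. The change in the Hif1a Ahr line minus that in the Ahr line was -0.42 for Gzma, -0.60 for Gzmc, -1.56 for Gzmd, -2.36 for Gzmg, 1.21 for Gzmm and -1.09 for the sum. With 1 library left out, that of Gzma lost its call in 9 of 12 cases (all but Hif1a Ahr KO replicate 1, Ahr KO replicate 1 and Ahr flox replicate 2, with log2 values between -0.43 and -0.32). That of Gzmd lost it in 7 (Hif1a Ahr KO replicates 2 and 3, Hif1a Ahr flox replicate 2, Ahr KO replicates 1 and 2, Ahr flox replicates 1 and 3), between -1.60 and -1.26, and that of Gzmg in 8 (the same 7 and Ahr flox replicate 2), between -2.53 and -1.88. No group had the 4 libraries that a check for outlying samples needs.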

How the results depend on the processing

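In the Hif1a line, of 132 alternative values for the 10 genes and the sum, 127 kept direction and call, 4 lost the call (all Gzma, with a library left out), 1 gained it (Gzmk, replicate block) and 0 reversed. In the Ahr line 126 kept both, 4 gained a call and 2 reversed, and in the Hif1a Ahr line 120 kept both, 9 lost the call, 2 gained it and 1 reversed. The sum of Gzmc to Gzmg kept direction and call throughout, from -1.38 to -1.17 in the Hif1a line, 0.23 to 0.35 in the Ahr line (never called) and -0.97 to -0.70 in the Hif1a Ahr line. Genes called higher in the Ahr line numbered 0, but 3 with only the 6 libraries of the line and 1 with the replicate block. Same-numbered libraries did not deviate together in every pair of the Hif1a Ahr line. There the block gave 2 higher in place of 1 (Gzmk, 0.62, adjusted p 0.0294) and called Prf1 lower (-0.48, adjusted p 0.0167). It changed no other call.

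Calls for the Hif1a Ahr change above the Hif1a change numbered 1, 3 with DESeq2 and 0 to 3 with 1 library left out. Genes called lower in the Hif1a Ahr line ranged from 2 to 4 with 1 library left out, and for the Hif1a Ahr change below the Ahr change from 1 to 4 (6 with DESeq2, which added Prf1 and Gzme).

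Reversals came only from leaving out 1 library and only in values with no call. With each library left out in turn, Gzmf in the Ahr line ran from -0.045 to 0.31, Gzmk in the Ahr line from -0.038 to 0.75 and Gzmb in the Hif1a Ahr line from -0.16 to 0.018. For the Hif1a Ahr change minus the Hif1a change, Gzmc ran from -0.20 to 0.064 and Gzmm from -0.052 to 0.17. For the Hif1a Ahr change minus the Ahr change, Gzmk ran from -0.17 to 0.61. For the Hif1a Ahr change minus the sum of the single changes, Gzmc ran from -0.13 to 0.14. Differences in the share of granzyme counts, KO minus flox in percentage points, ran from -0.65 to 0.19 for Gzme in the Hif1a Ahr line, -0.046 to 0.025 for Gzmf in the Ahr line, -0.00038 to 0.0014 for Gzmk in the Ahr line and -0.00027 to 0.0014 for Gzmk in the Hif1a line. For shares, transcript length was used in place of the planned coding length. Depth limits Gzmk and Gzmm, at a few CPM.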

Other observations

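Genes whose products restrain granzymes or are cut by them were counted in the same fit, as levels in the NK cells themselves. Of 6 listed serpins 5 could be tested, and 2 fell in the Hif1a line, 1 fell in the Ahr line, and 1 rose and 1 fell in the Hif1a Ahr line, where 35.4%, 6.92% and 31.3% of all tested genes were called. Serpinb1a, an inhibitor of neutrophil-type serine proteases, fell in every line, by 0.65 (edgeR adjusted p 0.0128), 0.92 (0.00798) and 0.86 (0.00191) on the log2 scale in the lines of Hif1a, Ahr and both. Serpinb9b, a paralog of the granzyme B inhibitor, had 44.5, 33.3 and 65.6 CPM in Hif1a KO and 126, 88.0 and 115 CPM in Hif1a flox (-1.20, adjusted p 6.64e-04). Serpinb9, the granzyme B inhibitor, had 660.0, 806 and 635 CPM in Hif1a Ahr KO and 530.2, 572 and 538 CPM in Hif1a Ahr flox (0.36, adjusted p 0.0458), and in the Hif1a line it was not called (-0.19). Serpinb9 and its paralogs resemble each other, so reads may be split wrongly among them.

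Of 14 substrates and death effectors, 1 rose and 5 fell in the Hif1a line, 1 rose and 2 fell in the Ahr line, and 7 fell in the Hif1a Ahr line, beside the same shares of 35.4%, 6.92% and 31.3% over all tested genes. Gsdme, a pore-forming gasdermin that granzyme B can cleave in target cells, fell in every line. It had 10.3, 10.3 and 9.85 CPM in Hif1a KO and 16.7, 13.8 and 18.5 CPM in Hif1a flox (-0.69, adjusted p 6.31e-04). It had 6.66, 6.97 and 5.67 CPM in Ahr KO and 18.6, 15.1 and 16.3 CPM in Ahr flox (-1.38, adjusted p 7.61e-06). It had 5.05, 3.46 and 3.83 CPM in Hif1a Ahr KO and 15.4, 19.0 and 18.5 CPM in Hif1a Ahr flox (-2.10, adjusted p 4.58e-09). No KO library reached a flox library of its line. Apex1, a DNA repair nuclease that granzyme A can cleave, fell by 0.62 (adjusted p 2.04e-04) in the Hif1a line. Hmgb2, a chromatin protein of the complex that granzyme A attacks, rose by 0.51 (adjusted p 5.58e-04) in the Hif1a line and fell by 0.42 (adjusted p 0.0156) in the Ahr line.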
